A study of Chlorella variabilis with 6 samples.

Results

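The 100 genes described here are those whose transcript level differed most between replicate cultures of the green microalga Chlorella variabilis, out of 9625 genes counted. They were chosen by their measured values. Counts were expressed as CPM, which is counts per 1000000 counts of the library, and 8649 genes reached a mean of 5 CPM over the 6 libraries. For each of these, the standard deviation (SD) of log2(CPM + 1) was computed among the 3 WT libraries and among the 3 LOG OX1 libraries, and the square root of the mean of the 2 variances was the pooled SD. The 100 highest values were taken, so that a large spread within a group is the way the genes were selected and not a finding. All 100 genes passed edgeR's filter on low counts and entered the comparison of the groups.

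WT was the NC64A wild type strain and LOG OX1 was 1 transformed line that carries CvarLOG1, the cytokinin-activating LONELY GUY gene of the alga, under a constitutive promoter. Both were grown as flask cultures in the same medium under a light and dark cycle and harvested at 14 days post inoculation (dpi), 1 h before the dark phase, with 3 biological replicates each. Only this 1 line was sequenced, so that an effect of CvarLOG1 and a property of the line cannot be told apart. CvarLOG1, listed as CHLNCDRAFT_28106, had 20.3, 20.03 and 23.5 CPM in WT replicates 1, 2 and 3 and 38.2, 40.5 and 35.8 CPM in LOG OX1 replicates 1, 2 and 3, so that all LOG OX1 libraries were above all WT libraries. The counts do not separate the added copy from the native gene. Total counts ranged from 10180885 to 12546100 per library.

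Replicate cultures of an alga are separate populations of cells, and the RNA of each is measured as an average over many cells. In such bulk RNA, more cells that express a gene and more transcript per cell cannot be told apart. The spread between replicates has a part that comes from counting a limited number of reads, which is larger for genes with few reads, and a part from differences between the cultures and their libraries. Few genes had a name, among the members and in the series as a whole. The count tables gave a gene symbol to 21 of all 9625 genes and to no member. Protein names came only from the study's table of genes that it found changed in these samples. A place in that table reflects the study's own comparison of the groups. Of the members, 6 had a protein name there other than uncharacterized. It held CHLNCDRAFT_15221, CHLNCDRAFT_50500 and CHLNCDRAFT_19722, which were not called in the comparison below. Sequences of the members were not analysed here.

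Among the named members were both genes of the table called rRNA intron-encoded homing endonuclease, CHLNCDRAFT_28885 and CHLNCDRAFT_19722. Homing endonucleases are enzymes encoded within introns or other mobile elements, which cut DNA at a target site and so help the element to spread, and those of this name are encoded in introns of ribosomal RNA genes. The other named members were a fragment of a putative polyketide synthase (CHLNCDRAFT_9558), an enzyme class that assembles carbon chains of secondary metabolites, Midasin (CHLNCDRAFT_133427), a large ATPase of ribosome assembly, an ATP-dependent RNA helicase listed under ribosome biogenesis (CHLNCDRAFT_26393), and coproporphyrinogen oxidase (CHLNCDRAFT_142838), an enzyme of heme and chlorophyll synthesis.

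The pooled SD of the 100 genes ran from 0.244 to 2.57 with a median of 0.277, beside a median of 0.0754 over the 8649 genes at the CPM floor. The values fell steeply along the ranking. Only 6 members had a pooled SD of 1 or more, 16 had 0.5 or more, and 41 had 0.3 or more. The first 3 members held 47.0% of the summed pooled variance of the 100 genes and the first 15 held 76.9%. At the lower end the values were nearly continuous. CHLNCDRAFT_26393, CHLNCDRAFT_143686 and CHLNCDRAFT_138284 were just inside with 0.245, 0.245 and 0.244, and CHLNCDRAFT_24322, CHLNCDRAFT_37234 and CHLNCDRAFT_140181 were just outside with 0.244, 0.244 and 0.243.

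Most members were weakly expressed. Their mean level had a median of 11 CPM, beside 47.4 CPM over all genes at the floor, and 78 of the 100 were under 20 CPM, where 19.0% of all genes at the floor lay. Counting error alone gave an expected SD with a median of 0.127 for the members. The observed pooled SD was a median of 2.41 times this expected value and 1.49 to 66.0 times across the members, beside a median of 1.24 times over all genes at the floor. It was over 2 times the counting value in 71 members and over 5 times in 20, and 12.5% of all genes at the floor were over 2 times. The members were chosen by this same pooled SD, so a ratio above that of all genes follows in part from the choice. No test was made of it. The remaining 29 members had mean levels of at most 11.7 CPM and an SD within 2 times what counting alone gives.

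**Figure D1:**
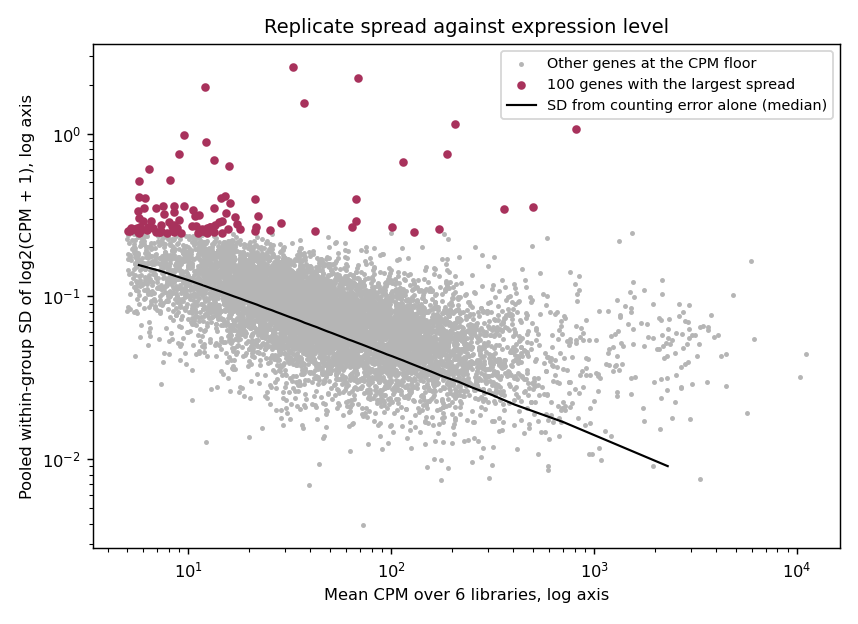
Pooled within-group SD of log2(CPM + 1) against mean CPM over the 6 libraries, both on log axes, for the 100 genes with the largest spread (large points) and the other genes at the floor of 5 CPM (small points). The line is the median SD expected from counting error alone, and the 100 genes, all in the upper part of the plot, had 1.49 to 66.0 times the counting SD computed for each.

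The largest spread belonged to the homing endonuclease gene CHLNCDRAFT_28885. It had 5.21, 2.53 and 0.717 CPM in WT replicates 1, 2 and 3 and 1.82, 184 and 1.67 CPM in LOG OX1 replicates 1, 2 and 3. In raw counts these were 56, 30 and 9 in WT and 19, 2292 and 17 in LOG OX1, so that the single library of LOG OX1 replicate 2 stood apart from the other 5. The highest LOG OX1 library had 110 times the CPM of the lowest.

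CHLNCDRAFT_15221, which has no protein name, showed the reverse form of spread, a single low library. Its level was 74.6, 52.3 and 0.877 CPM in WT replicates 1, 2 and 3 and 110.4, 36.5 and 136 CPM in LOG OX1 replicates 1, 2 and 3. WT replicate 3 held 11 counts of the gene where the other 5 libraries held 454 to 1384. Its annotation neighbour CHLNCDRAFT_15032 had 6.14, 6.4 and 6.38 CPM in the WT libraries, without a low value in replicate 3.

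CHLNCDRAFT_50500, also unnamed, had low and high libraries in both groups. It had 29.8, 21.5 and 1.59 CPM in WT replicates 1, 2 and 3 and 0.959, 0.884 and 18.2 CPM in LOG OX1 replicates 1, 2 and 3. The high libraries were WT replicates 1 and 2 and LOG OX1 replicate 3, and the 3 low ones held 10 to 20 counts each. The SD was 1.94 in WT and 1.92 in LOG OX1.

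CHLNCDRAFT_142121, without a protein name, was low in 1 LOG OX1 library. It had 68.2, 64.4 and 33.5 CPM in WT replicates 1, 2 and 3 and 31.6, 1.29 and 23.9 CPM in LOG OX1 replicates 1, 2 and 3. LOG OX1 replicate 2, with 16 counts, was the same library that was high for CHLNCDRAFT_28885, and all WT libraries were above all LOG OX1 libraries.

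**Figure D2:**
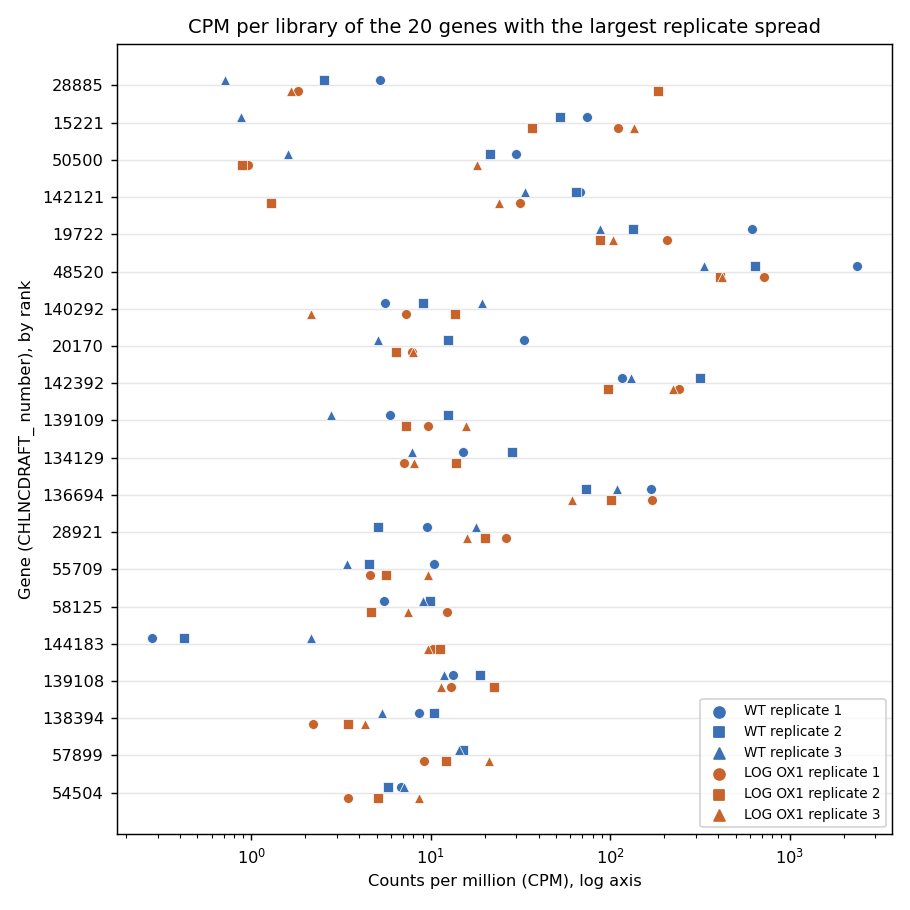
CPM (log axis) of the 20 genes with the largest pooled SD, in rank order from the top, with 1 point for each of the 3 WT and 3 LOG OX1 libraries. Single libraries stand apart for CHLNCDRAFT_28885 (LOG OX1 replicate 2 at 184 CPM) and CHLNCDRAFT_15221 (WT replicate 3 at 0.877 CPM), whereas genes further down have a more even spread.

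The next members formed a local cluster. CHLNCDRAFT_48520, CHLNCDRAFT_20170 and CHLNCDRAFT_19722 lie in a row in the annotation (Chlorella variabilis version 1.0), with only CHLNCDRAFT_20144 between the first and the second, a gene with at most 2 counts in any library. CHLNCDRAFT_48520, the most abundant member, had 2383, 639 and 333 CPM in WT replicates 1, 2 and 3 and 718, 410.2 and 418 CPM in LOG OX1 replicates 1, 2 and 3. The homing endonuclease gene CHLNCDRAFT_19722 had 614, 134 and 87.5 CPM in WT and 207, 87.8 and 104 CPM in LOG OX1. The uncharacterized CHLNCDRAFT_20170 had 33.1, 12.5 and 5.10 CPM in WT and 7.87, 6.43 and 7.96 CPM in LOG OX1. All 3 were highest in WT replicate 1 and lowest of the WT libraries in replicate 3, by 7.15, 7.02 and 6.50 times for CHLNCDRAFT_48520, CHLNCDRAFT_19722 and CHLNCDRAFT_20170.

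The deviations of these genes from their group means ran together. Over the 6 libraries Pearson's r was 0.986 between CHLNCDRAFT_48520 and CHLNCDRAFT_19722, 0.954 between CHLNCDRAFT_48520 and CHLNCDRAFT_20170, and 0.906 between CHLNCDRAFT_20170 and CHLNCDRAFT_19722. The points of each correlation are the same 6 libraries, and the group means were removed from them. CHLNCDRAFT_48519, directly before CHLNCDRAFT_48520, was under the CPM floor with 22, 12 and 1 counts in WT replicates 1, 2 and 3, which is the same order of libraries. In LOG OX1 replicates 1, 2 and 3 it had 2, 5 and 3 counts, lowest in replicate 1, where CHLNCDRAFT_48520 was highest. Of the nearest genes at the floor, CHLNCDRAFT_34049 before the cluster had r = 0.234 with CHLNCDRAFT_48520 and CHLNCDRAFT_140416 after it had r = -0.795. Farther on, CHLNCDRAFT_19917 had r = 0.897 with a pooled SD of only 0.0524. The second homing endonuclease gene, CHLNCDRAFT_28885, is placed elsewhere in the annotation and was highest in another library, LOG OX1 replicate 2. Its WT libraries had the same order as those of the cluster, with 5.21, 2.53 and 0.717 CPM in replicates 1, 2 and 3. Counts of genes that share reads with a near-identical copy are uncertain. Whether CHLNCDRAFT_28885 and CHLNCDRAFT_19722 do was not tested.

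A second cluster was low in LOG OX1 replicate 1. The polyketide synthase fragment CHLNCDRAFT_9558 had 23.3, 26.5 and 17.0 CPM in WT replicates 1, 2 and 3 and 6.43, 11.7 and 11 CPM in LOG OX1 replicates 1, 2 and 3. Its neighbour CHLNCDRAFT_139734 had 510, 582 and 425 CPM in WT and 338, 541 and 605 CPM in LOG OX1. The next gene, CHLNCDRAFT_15700, had 19.6, 24.5 and 18.6 CPM in WT and 13.9, 22.2 and 29.6 CPM in LOG OX1. In all 3 genes the lowest library of WT was replicate 3 and the lowest of LOG OX1 was replicate 1.

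The correlation of the deviations was 0.955 between CHLNCDRAFT_9558 and CHLNCDRAFT_139734 and 0.962 between CHLNCDRAFT_139734 and CHLNCDRAFT_15700. It was lower, 0.842, between CHLNCDRAFT_9558 and CHLNCDRAFT_15700. The gene after them, CHLNCDRAFT_37234, missed the 100 by 2 ranks and had r = 0.933 with CHLNCDRAFT_139734 at 1222 to 1836 CPM. Mean levels of these neighbours ran from 16.0 CPM in CHLNCDRAFT_9558 to 1541 CPM in CHLNCDRAFT_37234. Genes around them were mixed, and the pattern had no clear end. After CHLNCDRAFT_37234, CHLNCDRAFT_59114 had r = -0.0825 and CHLNCDRAFT_139737 had r = 0.856, and before CHLNCDRAFT_9558, CHLNCDRAFT_27437 had r = -0.195, CHLNCDRAFT_27629 0.744, CHLNCDRAFT_27430 0.833 and CHLNCDRAFT_37230 0.992, the last with a pooled SD of 0.0686. A second gene with the name of a polyketide synthase fragment, CHLNCDRAFT_27686, lies 4 genes before CHLNCDRAFT_9558, ranked 2800 by pooled SD and had r = 0.815 with CHLNCDRAFT_139734.

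**Figure D3:**
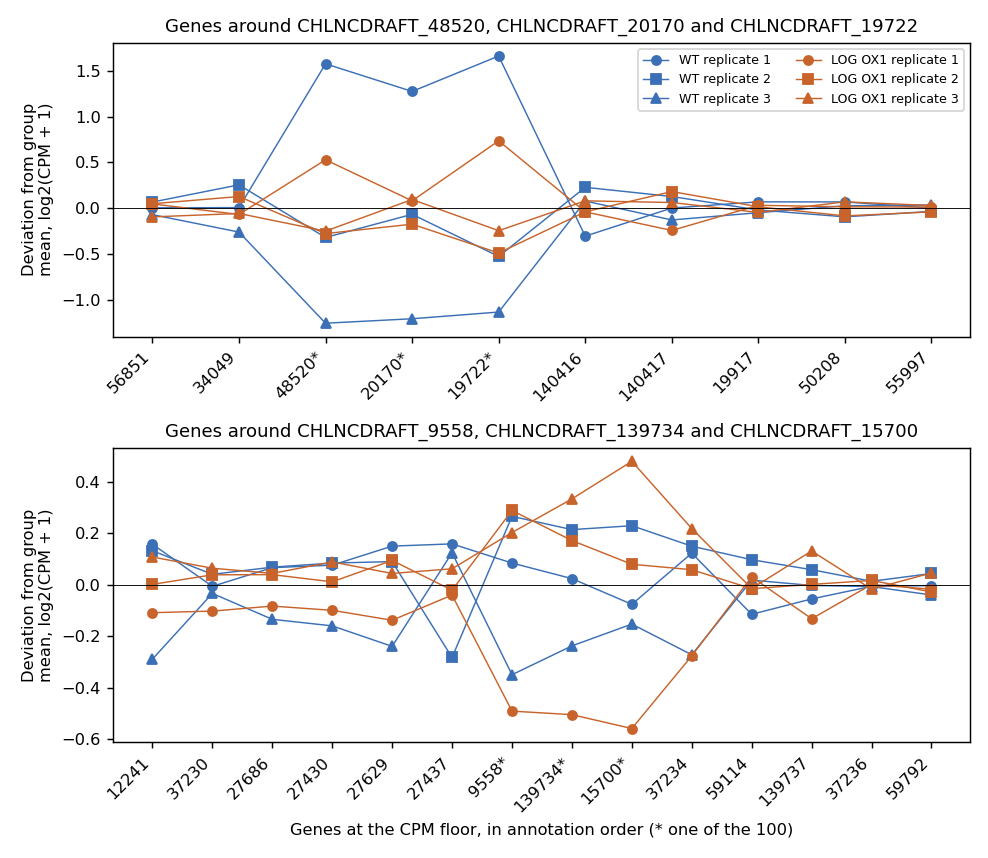
Deviation of log2(CPM + 1) from the group mean for genes at the CPM floor in annotation order around the first cluster (upper panel) and the second (lower panel), with 1 line per library and an asterisk at each of the 100 genes. In the upper panel WT replicate 1 is more than 1 log2 unit high and WT replicate 3 more than 1 low over the 3 marked genes, and in the lower panel LOG OX1 replicate 1 is low over the 3 marked genes and CHLNCDRAFT_37234.

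In all, 5 pairs of direct neighbours were both members and 6 pairs had 1 gene between them, which involved 18 of the 100 genes. The direct pairs had a median r of 0.906 and the pairs with 1 gene between them 0.284. Being neighbours did not always go with a shared pattern. CHLNCDRAFT_139108 and CHLNCDRAFT_139109, at ranks 17 and 10, had r = 0.105, and CHLNCDRAFT_144780 and CHLNCDRAFT_35065 had r = 0.650. Over 157 pairings of a member with a direct neighbour at the CPM floor the median r was 0.105, beside 8e-05 over the 7804 direct neighbour pairs of all genes at the floor. The 157 count the 5 direct pairs of members from both sides, whereas each of the 7804 pairs is counted once.

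The members did not share 1 deviating library. For each gene the farthest library was taken as the one with the largest deviation from its group mean. It was WT replicate 3 in 30 members, LOG OX1 replicate 1 in 20, WT replicate 1 in 17, and WT replicate 2, LOG OX1 replicate 2 and LOG OX1 replicate 3 in 11 each. Over all genes at the floor WT replicate 3 was also the most frequent with 21.2%, followed by LOG OX1 replicate 1 with 19.6%. The shares there were 16.1% and 14.1% for WT replicates 1 and 2, and 13.5% and 15.6% for LOG OX1 replicates 2 and 3. These values describe the spread by which the members were selected, and no test was made of them. WT replicate 3 had the highest total count of the 6 libraries, and LOG OX1 replicate 1 the second lowest.

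Of the 30 members farthest in WT replicate 3, 20 were low and 10 were high. The low ones, with a median deviation of -0.40 on the log2 scale, included CHLNCDRAFT_15221, CHLNCDRAFT_50500, Midasin, the RNA helicase and coproporphyrinogen oxidase. Midasin had 19.5, 18.9 and 12.7 CPM in WT replicates 1, 2 and 3, the helicase 7.17, 6.57 and 4.22 CPM, and coproporphyrinogen oxidase 8.47, 6.99 and 4.78 CPM. The high ones included CHLNCDRAFT_28921, with 9.49, 5.05 and 17.9 CPM in WT replicates 1, 2 and 3, and CHLNCDRAFT_144183, with 0.279, 0.421 and 2.15 CPM. These 3 WT values of CHLNCDRAFT_144183 rest on 3, 5 and 27 counts.

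Of the 20 members farthest in LOG OX1 replicate 1, 13 were low and 7 were high. The low ones had a median deviation of -0.49 and included the second cluster. Among the pairs of these 13 genes 37.2% had r of 0.9 or more, beside 24.7% among the 20 genes low in WT replicate 3, and such shares are raised by the shared farthest library that defines the sets. CHLNCDRAFT_136694, at rank 12, was high in LOG OX1 replicate 1. It had 169.8, 73.1 and 109.7 CPM in WT replicates 1, 2 and 3 and 172, 101 and 61.6 CPM in LOG OX1 replicates 1, 2 and 3.

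The members farthest in LOG OX1 replicate 2 included the first and the fourth in rank and CHLNCDRAFT_56087, a gene of higher expression. CHLNCDRAFT_56087 had 284, 279 and 257 CPM in WT replicates 1, 2 and 3 and 370.0, 623 and 334 CPM in LOG OX1 replicates 1, 2 and 3. Its WT libraries were close and LOG OX1 replicate 2 alone was high. LOG OX1 replicate 3 was the low library for CHLNCDRAFT_140292, with 5.58, 9.09 and 19.3 CPM in WT and 7.29, 13.6 and 2.16 CPM in LOG OX1.

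**Figure D4:**
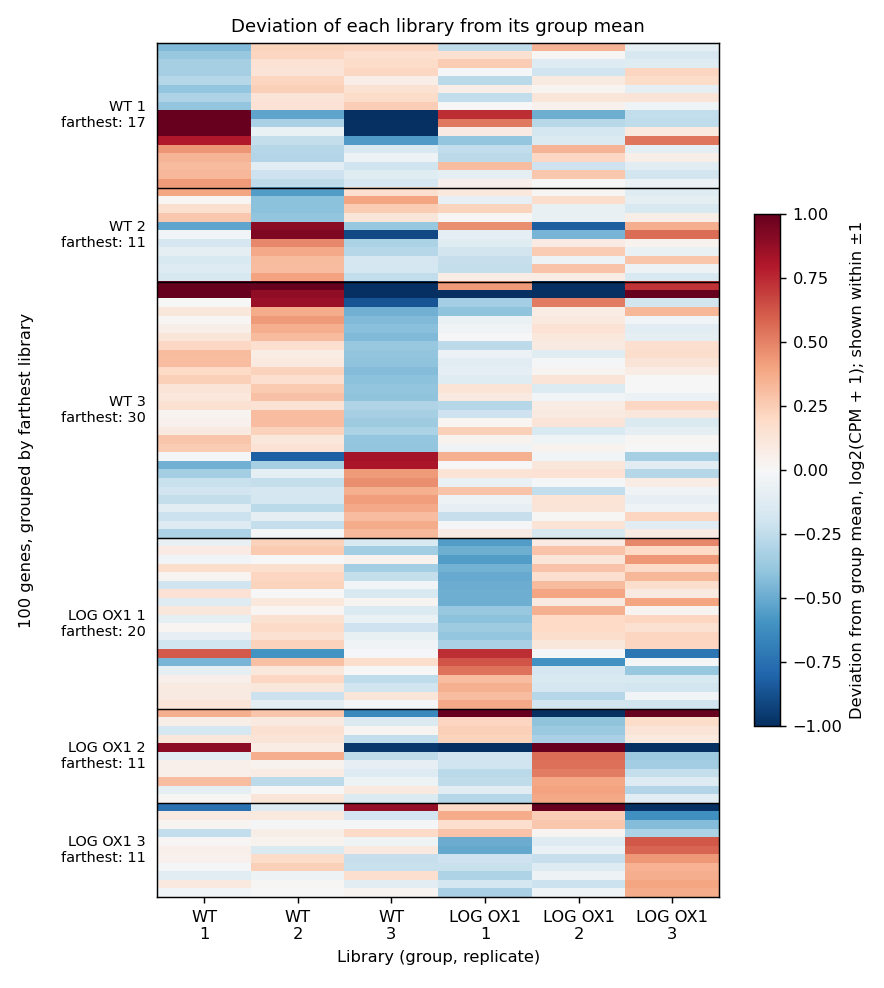
Deviation of log2(CPM + 1) from the group mean in each of the 6 libraries for the 100 genes, grouped by the library that deviates most (numbers of genes at the left, low before high within a block). Colours are limited to deviations within 1 log2 unit of 0, and WT replicate 3 has the largest block with 30 genes.

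In 11 members the farthest library lay at least 1 log2 unit from both other libraries of its group. One of these was CHLNCDRAFT_142392, which had 117, 317 and 129.9 CPM in WT replicates 1, 2 and 3 and 241, 97.8 and 224 CPM in LOG OX1 replicates 1, 2 and 3, with WT replicate 2 high. In the remaining members, CHLNCDRAFT_136694 among them, at least 1 other library of the group was nearer. The first component of the 100 genes' deviations carried 45.4% of their variance and the second 31.8%, and with every gene given equal weight these were 37.6% and 26.7%, where the deviations have only 4 free directions.

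Members seldom moved together as pairs. Of the 4950 pairs of members 3.05% had a correlation of deviations of 0.9 or more and 2.04% of -0.9 or less, beside 2.06% and 1.99% of the pairs of all genes at the floor. Between 0 and 8 other members moved with a given member in this way, and 15 members had none. Midasin and CHLNCDRAFT_139734 were among those with 8 such partners. The partner nearest in pattern to Midasin was CHLNCDRAFT_32900 with r = 0.984.

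The spread was unequal between the groups for many members. The SD reached the value of the last member in both groups in 28 genes, in WT alone in 39 and in LOG OX1 alone in 33. CHLNCDRAFT_57899 was an example of the last kind, with 14.9, 15.2 and 14.3 CPM in WT replicates 1, 2 and 3 and 9.21, 12.1 and 21.1 CPM in LOG OX1 replicates 1, 2 and 3. CHLNCDRAFT_20170 was an example of the other, with an SD of 1.24 in WT and 0.152 in LOG OX1.

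To see whether a gene that varied in 1 group also varied in the other, genes were ranked in each group by itself. The 100 genes with the highest SD in WT had a median SD of 0.135 in LOG OX1, beside 0.0657 over all genes at the floor. The 100 with the highest SD in LOG OX1 had a median SD of 0.124 in WT, beside 0.0683. These genes also had a higher expected counting SD, with medians of 0.126 and 0.116 beside 0.0622 over all genes at the floor, and the part of that in the values was not tested. The rankings shared 23 genes, which is 23% of each. All 23 were members, which follows from the rule, since an SD that high in both groups gives a high pooled SD. They included 14 of the first 15 members by pooled SD, the exception being CHLNCDRAFT_20170.

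Many of these genes also differed in mean level between LOG OX1 and WT, in both directions. The mean difference between LOG OX1 and WT did not enter the pooled SD. It was compared by the quasi-likelihood test of edgeR, and p-values were adjusted by Benjamini-Hochberg over all 9101 genes tested. The choice of genes was still not independent of the mean difference, since the CPM floor applied to the mean over both groups. A gene could reach the floor through its higher group alone, and its SD could then rest on few counts in the other group. CHLNCDRAFT_144183 (3, 5 and 27 counts in WT) and CHLNCDRAFT_142112 (19, 9 and 5 in LOG OX1) are examples. Others described below are CHLNCDRAFT_28885, CHLNCDRAFT_133897, CHLNCDRAFT_138469 and CHLNCDRAFT_48490, with WT means of 2.82, 4.58, 1.09 and 1.42 CPM, under the floor. CHLNCDRAFT_138394, CHLNCDRAFT_141534 and CHLNCDRAFT_145185 likewise had LOG OX1 means of 3.33, 0.764 and 1.72 CPM. How far this raises the shares called and the fold changes below was not tested. A call needed an adjusted p not above 0.05 together with a fold change not below 1.5. Of the 100 members 29 were called higher in LOG OX1, where 14% of all genes tested were, and 21 were called lower, where 14.6% of all genes tested were. The median log2 fold change of the members was 0.05, beside 0.00 over all genes tested, and the median of its absolute value was 0.65 beside 0.34. The standard error of the log2 fold change had a median of 0.18 in the members and 0.069 in all genes tested.

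Over all genes the share of calls and their balance of directions moved with expression level. Of the 1647 genes tested between 5 and 20 CPM 33.1% were called, 21.9% higher and 11.2% lower, and of the 7002 genes at 20 CPM or more 26.0% were called, 11.2% higher and 14.8% lower. Of the 78 members between 5 and 20 CPM 23 were called higher and 16 lower, and of the 22 members at 20 CPM or more 6 were called higher and 5 lower, so that the share called was the same in both classes. The part of expression level in the calls of the members was not tested.

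The WT and LOG OX1 values did not overlap in 48 members, where the values of 74% of all genes tested did not. Overlap follows in part from the choice of genes with a wide spread. In 5 called members the groups overlapped, and these were CHLNCDRAFT_28885, CHLNCDRAFT_48520, CHLNCDRAFT_20170, CHLNCDRAFT_134129 and CHLNCDRAFT_28921, all within the first 13 ranks. Of the first 20 members 3 were called higher and 5 lower by edgeR, and 2 were called by DESeq2. Of the other 80 members 26 were called higher and 16 lower by edgeR, and 42 were called by DESeq2.

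**Figure D5:**
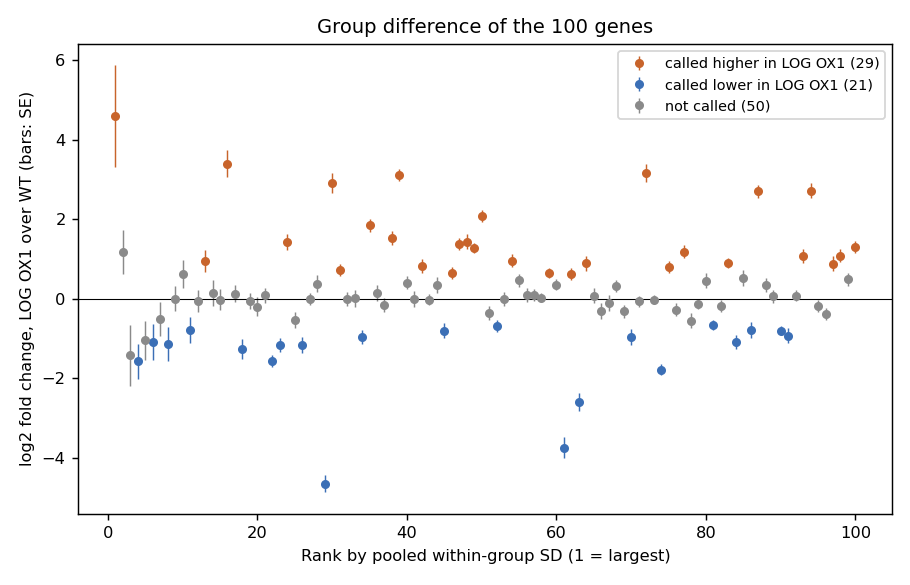
Log2 fold change of LOG OX1 over WT (points) with its standard error (bars) for the 100 genes against their rank by pooled SD, coloured by the call of edgeR's quasi-likelihood test. The 29 genes called higher and 21 called lower are spread along the ranking, and the widest bars belong to the first ranks.

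Of the members that rose in LOG OX1, CHLNCDRAFT_133897 had 3.82, 6.57 and 3.35 CPM in WT replicates 1, 2 and 3 and 36.1, 41.6 and 40.3 CPM in LOG OX1 replicates 1, 2 and 3. Its log2 fold change was 3.12 with a standard error (SE) of 0.15 (edgeR, Benjamini-Hochberg adjusted p = 9.4e-12). Its spread belonged to WT, where replicate 2 was high, and the groups lay far apart.

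CHLNCDRAFT_144183 had 10.4, 11.3 and 9.63 CPM in LOG OX1 replicates 1, 2 and 3, above all 3 WT values given before, and rose by 3.41 on the log2 scale (SE 0.33, edgeR adjusted p = 1.09e-07). CHLNCDRAFT_138469 had 1.21, 1.52 and 0.558 CPM in WT and 10.4, 9.48 and 9.23 CPM in LOG OX1 (log2 fold change 3.17). CHLNCDRAFT_48490 had 0.745, 1.77 and 1.75 CPM in WT and 8.63, 13.6 and 9.82 CPM in LOG OX1 (log2 fold change 2.91). None of these genes has a protein name. The SD of CHLNCDRAFT_138469 was 0.357 in WT, at 7 to 18 counts, and 0.0789 in LOG OX1. CHLNCDRAFT_48490 was spread in both groups, with an SD of 0.382 in WT, at 8 to 22 counts, and 0.308 in LOG OX1, at 90 to 169 counts.

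Each of the named enzymes of ribosome assembly and of porphyrin synthesis among the members was higher in LOG OX1. Coproporphyrinogen oxidase had 26.8, 25.6 and 31.5 CPM in LOG OX1 replicates 1, 2 and 3 and rose by 2.08 on the log2 scale (SE 0.15, edgeR adjusted p = 1.41e-09). Midasin CHLNCDRAFT_133427 had 33.3, 42.8 and 45.2 CPM in LOG OX1 and rose by 1.28 on the log2 scale (SE 0.14, edgeR adjusted p = 3.02e-07). The RNA helicase CHLNCDRAFT_26393 had 12.1, 12.8 and 12.4 CPM in LOG OX1 and rose by 1.09 on the log2 scale (SE 0.16, edgeR adjusted p = 1.21e-05). For these 3 genes all LOG OX1 libraries were above all WT libraries, and the deviating library was WT replicate 3.

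Midasin also allowed a comparison within a pair of neighbours, since the gene before it, CHLNCDRAFT_133426, carries the same name and was not a member. CHLNCDRAFT_133426 had 49.98, 48.4 and 38.8 CPM in WT replicates 1, 2 and 3 and 101.0, 101.3 and 100.2 CPM in LOG OX1 replicates 1, 2 and 3. It ranked 1097 by pooled SD, its deviations had r = 0.804 with those of CHLNCDRAFT_133427, and it was likewise lowest in WT replicate 3. Its log2 fold change was 1.17. The protein names come from a table of genes that the study found changed in these samples, so that the direction of a named gene is not independent of the naming.

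Among the members lower in LOG OX1, CHLNCDRAFT_142112 had 24.0, 27.8 and 25.7 CPM in WT replicates 1, 2 and 3 and 1.82, 0.723 and 0.491 CPM in LOG OX1 replicates 1, 2 and 3. Its log2 fold change was -4.66 with a standard error of 0.21 (edgeR adjusted p = 6.34e-12). Its spread came from LOG OX1, where the counts were 19, 9 and 5.

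CHLNCDRAFT_141534 had 9.68, 13.5 and 9.33 CPM in WT and 0.480, 1.13 and 0.688 CPM in LOG OX1 (log2 fold change -3.75). CHLNCDRAFT_145185 had 13.8, 9.17 and 9.80 CPM in WT and 1.53, 2.25 and 1.38 CPM in LOG OX1 (log2 fold change -2.60). CHLNCDRAFT_13992 had 24.5, 31.1 and 28.3 CPM in WT and 9.59, 5.95 and 8.84 CPM in LOG OX1 (log2 fold change -1.78). The groups of these unnamed genes did not overlap.

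The polyketide synthase fragment CHLNCDRAFT_9558 was called lower in LOG OX1, with -1.16 on the log2 scale (SE 0.18, edgeR adjusted p = 2.63e-05), whereas CHLNCDRAFT_139734 and CHLNCDRAFT_15700, which shared its replicate pattern, had -0.01 and 0.09 (edgeR adjusted p = 0.962 and 0.683). Thus 3 neighbours with correlated deviations within the groups had unlike values between the groups. The adjacent pair CHLNCDRAFT_144780 and CHLNCDRAFT_35065 was called lower at both genes. CHLNCDRAFT_35065 had 107, 108 and 88.0 CPM in WT replicates 1, 2 and 3 and 41.5, 38.1 and 20.5 CPM in LOG OX1 replicates 1, 2 and 3 (log2 fold change -1.56). CHLNCDRAFT_144780, listed by the study under sugar metabolism, had 176, 179 and 144 CPM in WT and 119, 82.2 and 81.6 CPM in LOG OX1 (log2 fold change -0.80).

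For several genes of the first ranks the call changed when a single library was left out. CHLNCDRAFT_28885 was called higher with 4.599 on the log2 scale (SE 1.3, edgeR adjusted p = 0.00425), and without LOG OX1 replicate 2 this was -0.61 (adjusted p = 0.34). DESeq2 gave no adjusted p for it. CHLNCDRAFT_48520 was called lower with -1.09 (SE 0.45, edgeR adjusted p = 0.0399), and without WT replicate 1 its value was 0.10 (adjusted p = 0.704). It was also not called, at log2 fold changes near that of all libraries, without LOG OX1 replicate 2 or 3 (-0.95 and -0.95, edgeR adjusted p = 0.132 and 0.123), with upper-quartile factors (-0.98, adjusted p = 0.0516) or by DESeq2 (-1.09, adjusted p = 0.274).

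CHLNCDRAFT_20170 was called lower with -1.14 (SE 0.43, edgeR adjusted p = 0.0275), and its value was -0.22 without WT replicate 1 (adjusted p = 0.468). Its call was also lost, at log2 fold changes near that of all libraries, without LOG OX1 replicate 2 or 3 (-1.03 and -1.19, edgeR adjusted p = 0.0933 and 0.0545) and by DESeq2 (-1.16, adjusted p = 0.159). CHLNCDRAFT_19722 of the same cluster was not called with -1.04 (edgeR adjusted p = 0.0699), was called without WT replicate 2 or 3 or LOG OX1 replicate 1 (adjusted p = 0.034, 0.00321 and 0.0165), and had 0.28 without WT replicate 1. Without WT replicate 1, none of the 3 genes of the cluster was called.

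CHLNCDRAFT_134129 had 15.2, 28.4 and 7.89 CPM in WT replicates 1, 2 and 3 and 7.10, 13.7 and 8.05 CPM in LOG OX1 replicates 1, 2 and 3, and was called lower with -0.78 (edgeR adjusted p = 0.0461). The call was lost without WT replicate 1 or 2 (-0.86 and -0.19, edgeR adjusted p = 0.0505 and 0.565), without LOG OX1 replicate 1 or 3 (-0.60 and -0.66, adjusted p = 0.131 and 0.137), with upper-quartile factors (-0.67, adjusted p = 0.0709) and by DESeq2 (-0.81, adjusted p = 0.231). CHLNCDRAFT_28921 had 26.4, 20.01 and 16 CPM in LOG OX1, and was called higher with 0.95 (edgeR adjusted p = 0.00595) and also in each of the 6 fits that left out a library, but not by DESeq2 (0.96, adjusted p = 0.114). CHLNCDRAFT_142121 was called lower with -1.57 (edgeR adjusted p = 0.00493) and had -0.96 without LOG OX1 replicate 2 (adjusted p = 0.00189), and DESeq2 did not call it (adjusted p = 0.218).

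Other genes of the first ranks were not called. CHLNCDRAFT_15221 had a log2 fold change of 1.18 (edgeR adjusted p = 0.0667), which was 0.58 without WT replicate 3 and 1.85 without WT replicate 1, where it was called (adjusted p = 0.0169), as it was without LOG OX1 replicate 2 (adjusted p = 0.018) and with upper-quartile factors (adjusted p = 0.0376). CHLNCDRAFT_50500 had -1.42 (edgeR adjusted p = 0.107) and was called without WT replicate 3 (-1.99, adjusted p = 0.00381) or LOG OX1 replicate 3 (-4.19, adjusted p = 0.00123). CHLNCDRAFT_142392, CHLNCDRAFT_136694 and CHLNCDRAFT_58125 had log2 fold changes of 0.01, -0.05 and -0.02, and the first was called without WT replicate 2 (0.62, edgeR adjusted p = 0.048). In these 3 genes replicates of a group differed by up to 2.78 times while the group means were near each other.

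CHLNCDRAFT_139109 had 5.96, 12.5 and 2.79 CPM in WT replicates 1, 2 and 3 and 9.69, 7.23 and 15.7 CPM in LOG OX1 replicates 1, 2 and 3, and was called only without WT replicate 2 (1.35, edgeR adjusted p = 0.00278). CHLNCDRAFT_140292 was called only without LOG OX1 replicate 2 (-1.25, edgeR adjusted p = 0.0293), and CHLNCDRAFT_55709 only without WT replicate 1 (0.74, edgeR adjusted p = 0.0268), of all alternatives run. CHLNCDRAFT_55709 had 10.4, 4.55 and 3.43 CPM in WT and 4.60, 5.63 and 9.63 CPM in LOG OX1. CHLNCDRAFT_138394 was called lower with -1.25 in the main comparison and without each library, with 8.56, 10.4 and 5.34 CPM in WT and 2.21, 3.46 and 4.32 CPM in LOG OX1.

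The remaining genes of the first 20 were CHLNCDRAFT_58125, CHLNCDRAFT_139108, CHLNCDRAFT_57899 and CHLNCDRAFT_54504, none with a protein name. CHLNCDRAFT_58125 had 5.49, 9.93 and 9.09 CPM in WT replicates 1, 2 and 3 and 12.3, 4.66 and 7.46 CPM in LOG OX1 replicates 1, 2 and 3. CHLNCDRAFT_139108 had 13.3, 18.8 and 11.9 CPM in WT and 12.9, 22.4 and 11.4 CPM in LOG OX1, with replicate 2 the highest in both groups. CHLNCDRAFT_54504 had 6.79, 5.81 and 7.09 CPM in WT and 3.45, 5.06 and 8.55 CPM in LOG OX1, so that its LOG OX1 libraries lay on both sides of all WT libraries.

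Of the 50 called members 40 were called in the same direction in all 6 fits that left out a library. The 10 others were 4 of the first 20 members and 6 further genes whose log2 fold changes of 0.62 to 0.72 in size were near the threshold, and without single libraries these fell under it, to 0.39 in size for CHLNCDRAFT_56087 without LOG OX1 replicate 2. In these 6 genes the adjusted p by edgeR stayed at most 0.0213.

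The genes were finally set against 10 lists made by keywords in the protein names, which held 60 genes in all. Both genes of the list of transposons and nucleases, the homing endonucleases, were members, and 1 of them was called higher and none lower. The other 9 lists held no member. In these lists edgeR's test called 1 higher and 1 lower of 2 heat shock proteins and chaperones, 6 and 1 of 7 genes of light harvesting and photosystems, 6 and 2 of 8 nutrient transporters, 7 and 0 of 7 ribosomal proteins, and 0 and 1 of 1 histone. It called 6 and 5 of 11 genes of the cell cycle and cytoskeleton, 2 and 2 of 4 of oxidative stress, 4 and 5 of 9 protein kinases, and 2 and 7 of 9 genes of proteases and ubiquitin. Since nearly all names belong to genes that the study had found changed, these counts are not independent evidence of a direction, and genes without a name could not enter a list.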

How the data were processed

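RNA of 3 WT and 3 LOG OX1 cultures was sequenced with a directional library kit. The authors checked reads with FastQC, removed adapters and bases of low quality (Trim Galore), aligned the rest by HISAT2 at default parameters and counted with HTSeq. What they deposited are raw counts for each gene, not normalized. The genome release, the tool versions and the strand setting of counting are not given in the sources used here, so genes that overlap, antisense genes and near-identical copies have uncertain counts, and no coordinates are given. The reference annotation (Chlorella variabilis version 1.0) held all 9625 identifiers and was used only for the order of genes. A new scaffold was taken to begin where start positions decrease. Protein names come from a table of the study.

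The members and lists were chosen with earlier results of these data known. CPM used the library total, with a pseudocount of 1 before the log2. The SD expected from counting error was computed from the counts by the Poisson variance. Chi-squared per degree of freedom was 2.07 to 11.6 for pairs of replicates within a group, more than counting error alone gives. It is a mean over genes, to which single genes with large differences can add much. Whether a library was a resequencing of another was not tested further. The counts cannot separate differences between cultures from differences between library preparations. The p-values set the difference between groups against the spread between these libraries, with each gene's variance estimate drawn toward the trend of all genes. What this does to the p-values of genes chosen for a wide spread was not tested.

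Groups were compared in R 4.3.3 with edgeR 4.0.16 and limma 3.58.1 (filterByExpr with a minimum count of 10, TMM, glmQLFit and glmQLFTest with condition as the only term, prior count of 0.125, Benjamini-Hochberg adjustment over 9101 genes). The standard error was the log2 fold change over the root of F. Scripts were tested on simulated data. Other steps used Python 3.11.15, numpy 2.4.6, pandas 2.3.3 and matplotlib 3.10.9.

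The genes named are the 20 members with the highest pooled SD, among called members the 5 that rose most and the 5 that fell most, members in a keyword list, the 3 genes on either side of rank 100, and CvarLOG1. Other genes (neighbours, genes with a protein name and examples of a library) were picked after their values were seen. Alternatives were DESeq2 1.42.0, no filter on counts or a minimum of 10 in every library, library size without factors, RLE and upper-quartile factors, a replicate block, other fold thresholds, other pseudocounts (0.5 and 5) and CPM floors (2 and 20), TMM library sizes, the range in place of the SD, counting variance subtracted, gaps to the group median, and each library left out.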

Additional observations from a re-analysis of the deposited data

How the results depend on the processing

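The list of 100 genes depended on the expression floor. With a floor of 2 CPM 47 of the members stayed among the 100 most variable genes, and with a floor of 20 CPM 22 did, which is every member that reached that level. Other pseudocounts, TMM library sizes, the range in place of the SD and subtraction of the counting variance kept 73 to 98. Leaving out 1 library kept 61 to 74 (61 without LOG OX1 replicate 1, 66 without WT replicate 3), and the 14 members kept whichever library was left out were those ranked 2 to 15. The farthest library of the members was counted within 1.5 times under its alternatives.

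A fold threshold of 2 left 18 members called higher and 12 lower. Leaving out a library gave 27 to 32 higher and 18 to 24 lower, and DESeq2 gave 27 and 17. Upper-quartile factors moved the median log2 fold change of all genes by 0.11 and the share of higher among all calls from 49.0% to 61.0%, and gave 32 and 17 members. The share of member pairs with r of 0.9 or more was 6.04% to 7.23% with a library left out, beside 5.15% to 5.32% of all pairs, as fewer libraries leave fewer free directions. The log2 fold change reversed for CHLNCDRAFT_28885 without LOG OX1 replicate 2 (-0.61, with a range of -0.61 to 5.35 over the libraries left out) and for CHLNCDRAFT_48520 without WT replicate 1 (0.10, with a range of -1.52 to 0.10). Signs also turned in 9 named members that were not called, none of them called where the sign turned. Over the libraries left out these ran from -1.50 to 0.28 in CHLNCDRAFT_19722 (0.28 without WT replicate 1), -1.25 to 0.13 in CHLNCDRAFT_140292, -0.24 to 0.62 in CHLNCDRAFT_142392, -0.48 to 0.30 in CHLNCDRAFT_136694, -0.19 to 0.74 in CHLNCDRAFT_55709, -0.44 to 0.29 in CHLNCDRAFT_58125, -0.24 to 0.36 in CHLNCDRAFT_139108, -0.43 to 0.17 in CHLNCDRAFT_57899 and -0.58 to 0.052 in CHLNCDRAFT_54504. Upper-quartile factors gave 0.064 for CHLNCDRAFT_136694, 0.058 for CHLNCDRAFT_57899 and 0.092 for CHLNCDRAFT_58125, DESeq2 gave 0.011 for CHLNCDRAFT_58125, and library size only gave -0.014 for CHLNCDRAFT_142392. Of 344 values for the 27 named members under alternatives, 288 kept direction and side of the threshold, 27 reversed, 16 lost the call and 13 gained it, and the cause was not tested.

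The replicate numbers only name the samples. The deviations of same-numbered libraries had r = -0.031, -0.00038 and -0.16 over the genes tested. With the replicate block 29 members were called higher and 22 lower, CHLNCDRAFT_19722 being the 1 added (-0.69, edgeR adjusted p = 0.0115). With 3 libraries per group, each SD rests on few values, and at a few CPM counting error takes much of it.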
